A study of Mus musculus with 16 samples.

Results

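Among the late libraries of a mouse fibroblast line carrying 2 conditional copies of Sdhc, 2 pairs differed from each other, and the genes that part them are described here. Set A holds day 16 replicate 1 and the single day 20 library, and set B holds day 16 replicates 2 and 3. These 4 libraries, of 16 in the series, were chosen from their own expression values, so every difference between the sets in this line is a description without a test. The genes described are the 12539 of 24485 gene IDs with a mean of at least 1 FPKM (fragments scaled to transcript length and to the number of mapped fragments) over the 4 libraries. The label under which the sets were proposed speaks of culture states, a term the sample labels do not use, so the sets are named by their letters.

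The cells are immortalized mouse embryonic fibroblasts, cultured cells that grow without limit. The experimental line (exp) has the genotype R26M2rtTA/+;TetOcre;Sdhcfl/fl, and the control line (ctl) has R26M2rtTA/+;TetOcre;Sdhcfl/wt. Both lines therefore carry a transactivator that needs doxycycline and a Cre recombinase that it switches on, and both received doxycycline at 1 µg/mL in low-glucose medium with 10% serum. Each genotype is represented by 1 line. Line and genotype cannot be told apart, nor can set, culture and sequencing run, because the labels give no batch for a replicate. In ctl the same days and replicate numbers give a set A and a set B that the choice did not use, and these 4 libraries were tested with limma. Earlier results had already shown that replicates 2 and 3 lie close together in both lines, so the ctl split is not an independent discovery. Set A of each line also mixes 2 days, and its spread includes any change from day 16 to day 20.

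The 16 libraries held 18121520 to 42486438 reads in genes. In exp, set A had 29847904 (day 16 replicate 1) and 25961009 (day 20) reads, and set B had 39286716 and 41814820. The ctl sets had 34903984 and 28924245 against 42486438 and 40576755 reads, so set B was the deeper one in both lines, and the part of depth in the differences was not tested. Sdhc, the targeted gene, encodes a membrane subunit of succinate dehydrogenase, the enzyme that links the citric acid cycle to the respiratory chain. Its values in exp at days 0, 5, 9 and 12 were 87.8, 54.4, 43.8 and 44.0 FPKM. Set A had 36.9 and 42.5 FPKM and set B 32.8 and 26.5. In ctl the values were 90.5, 58.6, 47.6 and 52.6 on the early days, 50.5 and 54.7 in set A, and 50.1 and 47.5 in set B. Sdhc was thus lower in set B of exp without overlap, by a difference of -0.41 log2, and the ctl difference of -0.11 ± 0.05 did not pass (SE; limma adjusted p = 0.114). The FPKM of a whole gene does not show which exons were read, so it does not measure the deletion itself.

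Throughout, set A values are given with day 16 replicate 1 first and day 20 second, and set B values with replicate 2 first and replicate 3 second. A difference is the set B mean minus the set A mean of log2(FPKM + 1). A gene is called in exp where this difference is at least 1 in size and the sets do not overlap. By that rule 250 genes were higher and 414 lower in set B of exp, 1.99% and 3.30% of the genes described. At a size of at least 2 the counts were 20 and 99. Many of the higher genes were IDs of small nucleolar RNAs and microRNAs, and microRNA IDs were also among the lower ones. Small RNAs are otherwise not named here, although Snord64, at 2.81 log2, had one of the largest differences of the higher genes. The sets did not overlap for 73.4% of genes, 5013 above (40.0%) and 4187 below (33.4%), and the median difference over all genes was 0.02. The median absolute gap between the 2 libraries of a set was 0.10 log2 in set A and 0.06 in set B, against a median absolute difference between the sets of 0.19. Eef2k lay just inside the rule for higher genes at 1.00 and Arntl2 just outside at 0.996. Slc35f2 lay just inside for lower genes at -1.002 and Lhx9 just outside at -0.99. Armc9, with a mean of 1.002 FPKM, was the last gene past the filter, and Hk1os, with 0.9999, the first one under it.

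The mesothelium is the sheet of flat epithelial-like cells that lines the body cavities and covers the internal organs. It arises from mesoderm, as fibroblasts do, but it holds keratin filaments and carries surface proteins such as mesothelin and uroplakins, with the transcription factor WT1 in the nucleus. Genes of this cell type were prominent among those that part the sets. Of 17 mesothelial markers on the list, 16 were in the files and 15 passed the filter, and all 15 that passed were called lower in set B of exp, where 3.30% of all genes were. Cdh1, which encodes E-cadherin, was under the filter at 0.922 and 0.7996 FPKM in set A and 0.982 and 0.815 in set B. The median difference of the 15 was -3.06 log2, beside 0.02 over all genes. Because expression in these 4 libraries chose the sets, the count describes them and supports nothing further. In bulk RNA, fewer cells of a type and less RNA per cell cannot be told apart.

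Upk3b and Lrrn4 had the 2 largest differences on the list, and their promoters are shown because their levels stand in the same order over the 8 exp libraries. Upk3b (gene ID 100647), a uroplakin of the cell surface, lies on chromosome 5 from 136514366 to 136521173 on the plus strand in mm9. Lrrn4 (gene ID 320974), a leucine-rich repeat membrane protein, is a minus-strand gene of chromosome 2 spanning 132694041 to 132706627. Each sequence is the 250 bases before the RefSeq start (GRCm38.p6), 5′ to 3′ on the strand of the gene, placed in mm9 by an exact match at chr5:136514116-136514365 and chr2:132706599-132706848. Capitals mark the 6 letters GGAATG, the core of TEAD sites, on either strand. The match begins 241 bases before the start in Upk3b and 196 before it in Lrrn4. The last 29 bases of the Lrrn4 window lie in an exon of the mm9 annotation.
Upk3b: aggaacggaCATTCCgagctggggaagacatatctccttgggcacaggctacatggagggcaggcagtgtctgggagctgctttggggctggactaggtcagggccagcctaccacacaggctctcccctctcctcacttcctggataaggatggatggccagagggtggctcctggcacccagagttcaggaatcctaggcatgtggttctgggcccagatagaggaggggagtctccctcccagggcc
Lrrn4: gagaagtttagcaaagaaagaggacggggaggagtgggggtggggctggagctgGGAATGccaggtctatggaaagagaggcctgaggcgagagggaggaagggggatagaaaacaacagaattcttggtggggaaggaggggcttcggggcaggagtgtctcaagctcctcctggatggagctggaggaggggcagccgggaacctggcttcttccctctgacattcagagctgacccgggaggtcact
The letters were found in 3 of the 10 marker promoters that matched the table, the third being Gpm6a. Over all genes past the filter with a promoter they were in 981 of 9569, or 10.3%. A match is a description of the letters, not of binding.

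Upk3b had 455 and 433 FPKM in set A and 22.9 and 28.0 in set B, a difference of -4.08 log2. Lrrn4 had 169 and 147 FPKM against 9.99 and 11.2, a difference of -3.78. The simple-epithelial keratins followed. Krt18 had 41.5 and 31.9 FPKM against 2.27 and 2.03 (-3.57), its partner Krt8 had 7.76 and 5.06 against 0.183 and 0.119 (-2.66), and Krt7 had 47.8 and 41.8 against 3.996 and 4.64 (-3.11). Krt19 kept a larger part, with 92.5 and 76.7 FPKM against 18.8 and 16.1 (-2.21). None of these 6 genes overlapped between the sets, and the gap within a set was at most 0.53 log2, for Krt8 in set A.

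The remaining members include surface proteins, transcription factors and an enzyme. Wt1, the Wilms tumour transcription factor, had 28.2 and 24.9 FPKM in set A and 2.099 and 2.26 in set B (-3.11 log2). Bnc1, which encodes basonuclin, a zinc finger protein, had 46.9 and 42.8 against 4.25 and 5.22 (-3.00). Msln, the gene of mesothelin, had 131 and 105 against 15.3 and 20.7 (-2.65). Aldh1a2 makes retinoic acid from retinal, and it had 41.6 and 45.1 FPKM against 4.64 and 5.43 (-2.88). The other members had differences of -3.48 for Podxl (podocalyxin), -3.42 for Gpm6a, -3.06 for Upk1b, -2.66 for Rspo1 (a Wnt-enhancing secreted protein) and -1.62 for Ezr (ezrin, which ties the membrane to actin). Expressed as a share of set A, set B kept 2.36% of the FPKM of Krt8 and 31.9% of that of Ezr, the lowest and highest of the 15.

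**Figure D1:**
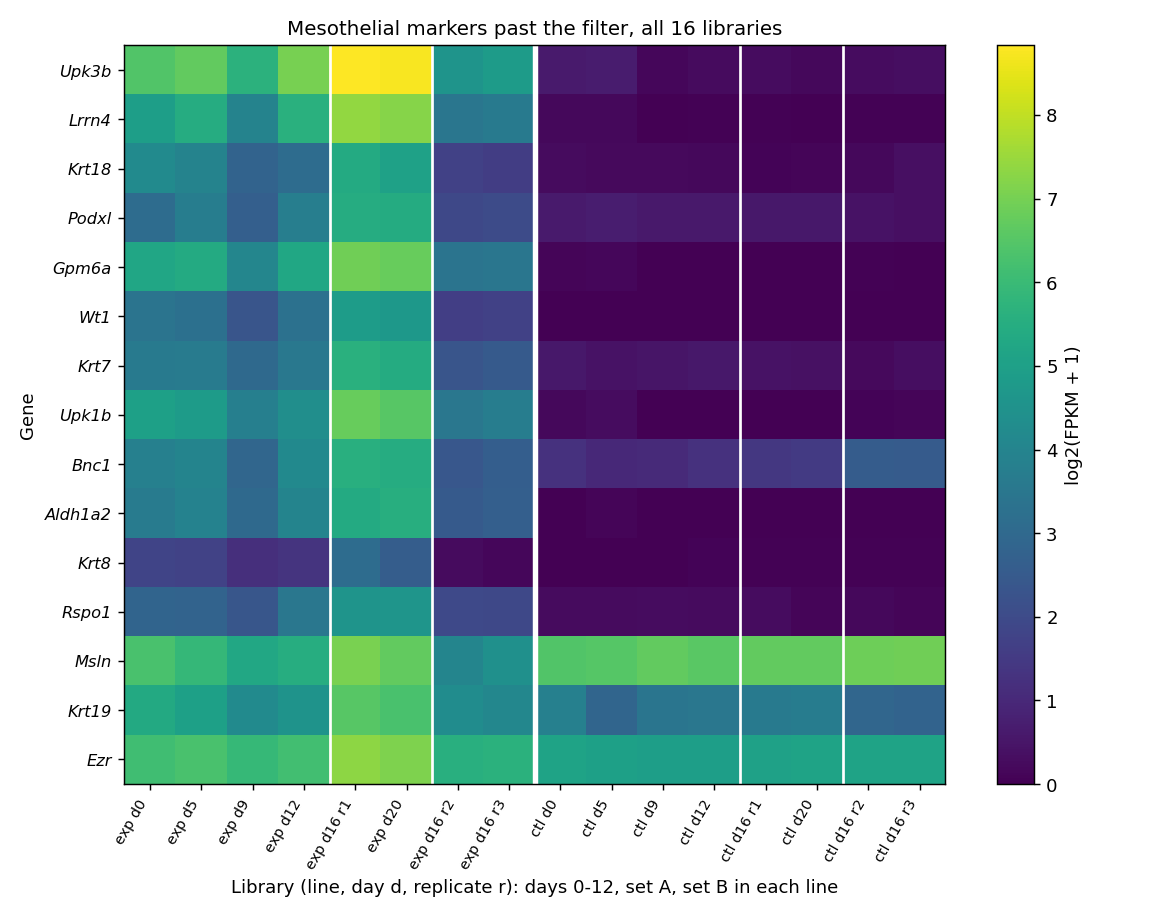
Level of the 15 mesothelial markers past the filter (rows, ordered by their difference in exp) in each of the 16 libraries (columns), as log2(FPKM + 1) on the colour scale. Set A of exp is the brightest pair of columns for all 15 genes apart from Msln, whose ctl libraries reach similar levels, and set B of exp is darker than the early exp days in nearly every row.

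Earlier exp libraries lay between the sets for these markers. Relative to the set A mean, the median over the 15 genes on days 0, 5, 9 and 12 was 31.0%, 32.5%, 15.8% and 30.1%. Replicates 2 and 3 of day 16 had 8.92% and 10.4%. All 15 genes were below both set A libraries on each of the 4 early days. All 15 were above both set B libraries at days 0, 5 and 12, and 14 were at day 9, the exception being Krt19. Set A was thus above, and set B below, what the same line had at days 0 to 12. Upk3b, for example, had 84.8, 103, 50.3 and 127 FPKM on those days.

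The ctl line expressed few of these genes, so most give no second measurement. Only 5 of the markers passed the filter in ctl: Msln, Krt19, Ezr, Bnc1 and Cdh1. Msln had 104 and 104 FPKM in set A of ctl and 117 and 121 in set B, a rise of 0.19 ± 0.04 log2 (SE; limma adjusted p = 0.00353). Bnc1 also rose, from 1.72 and 1.80 to 4.95 and 4.87 (1.10 ± 0.07, limma adjusted p = 1.01e-05). Krt19 fell by 0.80 log2, from 11.53 and 11.93 to 6.53 and 6.08 FPKM (limma adjusted p = 1.9e-05). Ezr and Cdh1 did not pass, at 0.03 and -0.02 (limma adjusted p = 0.524 and 0.874). Msln and Bnc1 thus moved up in ctl and were lower in set B of exp. The difference between the lines was not tested.

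Markers of other cell types were counted to see what else the libraries could hold. The 12 fibroblast markers summed to 5022 and 4767 FPKM in set A and 4889 and 4901 in set B, so their total was near the same in both. Among the 11 that passed the filter, Lum and Thy1 were called higher and Dcn lower, beside 1.99% and 3.30% of all genes. Vim, the fibroblast intermediate filament, had 1469.9 and 1371 FPKM against 1980.3 and 1819.8, and Col1a1, the main collagen chain, had 1116 and 1055 against 1002 and 1155. Of 8 epithelial markers 3 passed, and all 3 were called lower, as were 3.30% of all genes: Krt8, Krt18 and Krt14. Krt8 and Krt18 are also on the mesothelial list and were counted there. Epcam, Krt5, Cldn3 and Cldn4 were near 0 in all 4 libraries, with Epcam at no more than 0.244 FPKM. Other epithelial genes, not on the list and chosen after their values were seen, were called in both directions. Cdh3, the gene of P-cadherin, had 59.6 and 48.5 FPKM in set A and 14.7 and 16.7 in set B, and Spint1, a protease inhibitor, had 13.3 and 11.6 against 3.10 and 3.40. Lsr, Dsp (desmoplakin), Cgn (cingulin) and Esrp2, a splicing factor, had differences of -1.79, -1.74, -1.66 and -1.29. Cdsn, Cdh17, Ppl and Gjb2 were called higher instead, with differences of 2.08, 1.59, 1.41 and 1.34. Summed FPKM of the epithelial list was 157 and 121 in set A and 9.29 and 12.2 in set B, nearly all of it keratin. Macrophage markers summed to 6.03 to 7.79 FPKM and endothelial markers to 2.72 to 3.13, with Ptprc, Pecam1 and other defining members under the filter. The myogenic list summed to 0.752 to 2.53 FPKM. The neural and Schwann list summed to 54.7 and 48.2 in set A and 34.6 and 37.6 in set B, with Sox10 under the filter. The part of these cell types in the differences was not tested.

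Beyond the marker list, the 12 largest differences with set B below set A named 7 further genes. Krt14, a keratin of basal epithelial cells, had 107 and 82.9 FPKM in set A and 5.71 and 9.11 in set B (-3.53 log2). Smpd3, a neutral sphingomyelinase that cuts membrane sphingomyelin into ceramide, had 106 and 81.9 against 7.09 and 8.78 (-3.41). Aldh1a1, another retinal dehydrogenase, had 44.9 and 41.8 against 3.28 and 3.67 (-3.31). Vat1l, Tmem108, Cldn15 (a claudin) and Spock2 (a matrix proteoglycan) had differences of -3.76, -3.48, -3.45 and -3.23. Of the 7 genes, Smpd3 alone passed the filter in ctl. It fell there too, from 3.53 and 3.28 to 0.992 and 1.00 FPKM (by 1.14 log2, limma adjusted p = 1.48e-05).

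With small RNAs left out, the 12 largest differences among the genes higher in set B covered immediate-early factors, chemokines and secreted or surface proteins. Fosb, a subunit of the AP-1 transcription factor, had 1.82 and 1.13 FPKM in set A and 59.9 and 8.91 in set B (3.33 log2). Fos, a related subunit, had 31.0 and 22.4 against 246 and 82.1 (2.39). Replicate 2 was well above replicate 3 for both, by 2.62 log2 for Fosb and 1.57 for Fos, and the day 0 levels of both were higher still. Both genes were highest at day 0, at 418 FPKM for Fosb and 1089 for Fos, and were lower on each later day up to day 12. Across the 28 immediate-early genes the median difference was 0.22, and Dusp6, a phosphatase that switches off ERK, was called lower at 24.95 and 20.3 against 9.70 and 8.03 (-1.26).

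**Figure D2:**
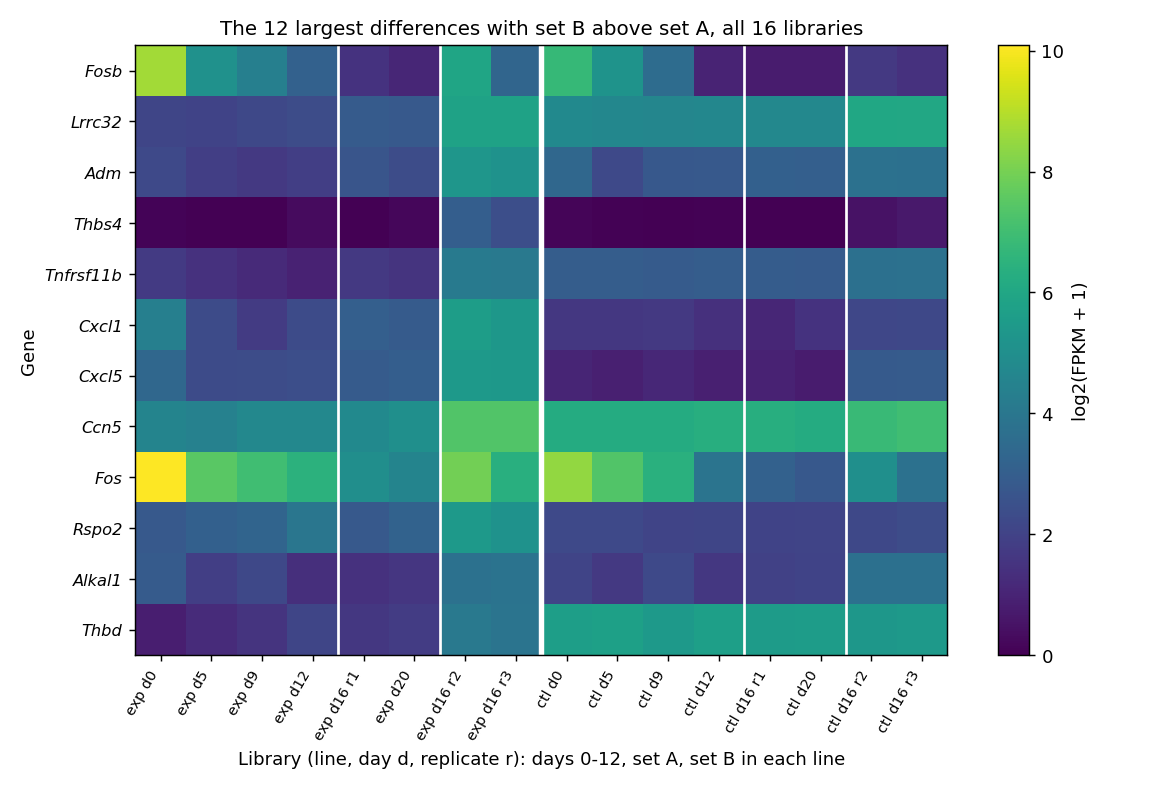
Level of the 12 genes with the largest difference above set A, small RNAs left out (rows), in the 16 libraries (columns), as log2(FPKM + 1) on the colour scale. Fosb and Fos are bright at day 0 of both lines and in replicate 2, whereas Lrrc32, Adm, Cxcl1, Cxcl5 and Ccn5 have like levels in replicates 2 and 3 of exp.

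Of the other 10 genes Thbs4 had the largest gap between replicates 2 and 3, at 0.60 log2. Lrrc32, which displays latent TGF-beta on the cell surface, had 6.39 and 5.996 FPKM in set A and 54.6 and 55.3 in set B (2.96 log2). In exp before day 16 it had 3.14 to 4.06 FPKM. Adm, the gene of the vessel-dilating peptide adrenomedullin, had 5.29 and 4.10 against 38.0 and 34.4 (2.71). Tnfrsf11b encodes osteoprotegerin, a decoy receptor that restrains bone resorption, and had 2.19 and 1.86 against 16.7 and 15.8 (2.51). Thbs4, a matrix thrombospondin, was close to 0 in set A, at 0.0105 and 0.1203, and reached 7.07 and 4.32 in set B (2.62). Ccn5, a secreted matricellular protein, had 26.6 and 31.6 against 163 and 162 (2.44). Rspo2, which like Rspo1 enhances Wnt signals, had 5.97 and 7.93 against 41.4 and 34.5 (2.30), opposite to Rspo1. Alkal1 and Thbd (thrombomodulin, an anticoagulant receptor) had differences of 2.28 and 2.27.

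Chemokines and other inflammatory genes were called in both directions. Cxcl1, a neutrophil-attracting chemokine, had 7.38 and 6.45 FPKM in set A and 48.7 and 39.6 in set B (2.51 log2). Cxcl5, a neighbour with the same receptor, had 6.41 and 7.16 against 42.3 and 41.0 (2.45). Of 24 members of the inflammatory list past the filter, 5 were called higher and 3 lower, beside 1.99% and 3.30% of all genes. The list's differences ran from -2.81 to 2.51, with a median of -0.18. Ccl7, Il1rl1 (the receptor of IL-33) and Ptgs2 (cyclooxygenase 2) were the other higher ones, at 1.49, 1.47 and 1.11. Il33, the ligand of Il1rl1, was lower at 9.64 and 8.24 against 0.469 and 0.487 (-2.75). Vcam1, an adhesion molecule, had 69.6 and 83.1 against 29.8 and 29.2 (-1.34). None of 29 genes on the interferon-stimulated list was called, and their median was 0.06. Off the list and chosen after their values were seen, the interferon-inducible genes Ifi27l2a, Ifi204 and Mndal were called lower (-1.73, -1.09 and -1.01).

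The Cxcl1 promoter is shown beside that of a gene with the opposite direction, Slc16a3, which exports lactate. Both windows are the 250 bases before the RefSeq start, at chr5:91320021-91320270 and chr11:120810131-120810380 in mm9, both on the plus strand. Capitals mark ACGTG on either strand, the core letters of HIF sites, beginning 196 bases before the start in Cxcl1 and 27 and 14 before it in Slc16a3. The last 4 bases of the Cxcl1 window and the last 14 of the Slc16a3 window lie in annotated exons.
Cxcl1: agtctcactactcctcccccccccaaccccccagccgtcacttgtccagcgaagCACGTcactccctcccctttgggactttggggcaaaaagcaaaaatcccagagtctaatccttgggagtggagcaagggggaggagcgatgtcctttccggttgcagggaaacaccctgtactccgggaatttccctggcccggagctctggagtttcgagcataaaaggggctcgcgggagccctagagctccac
Slc16a3: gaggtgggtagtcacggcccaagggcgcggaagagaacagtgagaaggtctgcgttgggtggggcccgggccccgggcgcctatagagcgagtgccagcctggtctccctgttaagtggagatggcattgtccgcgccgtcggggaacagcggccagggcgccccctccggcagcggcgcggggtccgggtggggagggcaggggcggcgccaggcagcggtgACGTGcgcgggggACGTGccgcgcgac
The same letters were in 2142 of 9569 promoters of all genes past the filter (22.4%).

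Contractile genes of smooth muscle type were called in 1 direction. Of 19 past the filter 4 were called higher and none lower, beside 1.99% and 3.30% of all genes. Without overlap, 14 were above set A and 4 below it, beside 40.0% and 33.4% of all genes. The list's median was 0.39. Actg2, an enteric smooth muscle actin, had 2.47 and 1.08 FPKM against 10.6 and 6.98 (1.84 log2). Cnn1, calponin, had 8.89 and 5.80 against 25.6 and 24.0 (1.65). Myl9, a regulatory myosin light chain, had 103 and 80.5 against 228 and 201 (1.23), and Lmod1, an actin nucleator, had a like difference of 1.23. In ctl 11 of 19 members rose and 2 fell by limma, where 25.5% of all genes rose and 23.2% fell, with a median of 0.22. Cnn1 did not pass there (0.05 ± 0.07, limma adjusted p = 0.581).

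Matrix genes were called in both directions. Of 19 chains past the filter on the collagen list, which leaves out Col2a1, 7 were called lower and none higher. Over all genes the shares were 3.30% lower and 1.99% higher. Col8a2, a short-chain collagen, had 108 and 122 FPKM in set A and 21.5 and 19.4 in set B (-2.44 log2). The basement membrane chains Col4a1, Col4a2 and Col4a5 had differences of -1.20, -1.05 and -1.30, and Nid2, a basement membrane linker, had -1.41. Col3a1, a fibrillar chain, had 449 and 499 against 220 and 215 (-1.12), and Col6a1 and Col6a2 had -1.04 and -1.03. Col1a1 overlapped between the sets. Of 36 matrix glycoproteins and crosslinking enzymes, 5 were called higher and 6 lower, beside 1.99% and 3.30% of all genes. Dcn, the small proteoglycan decorin, had 118 and 143 FPKM against 24.2 and 21.3 (-2.46), and its relative Lum, lumican, had 1.42 and 2.32 against 7.19 and 5.89 (1.41). Eln, elastin, had 12.8 and 18.8 against 5.27 and 3.45 (-1.65), and Efemp1, a fibulin, had 65.8 and 53.1 against 14.1 and 14.5 (-1.98). Fbn2, a microfibril protein, was higher at 7.19 and 7.45 against 24.6 and 31.1 (1.79), as was Loxl4 at 1.27, while Loxl2 was lower at -1.48.

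Adipogenic genes were called in both directions, 3 of 12 higher and 1 lower, beside 1.99% and 3.30% of all genes. Without overlap, 8 lay above set A and 2 below it, beside 40.0% and 33.4% of all genes, with a median of 0.37. In ctl 1 of 10 members rose and 5 fell by limma, where 25.5% of all genes rose and 23.2% fell, with a list median of -0.15. Plin4, a coat protein of lipid droplets, had 0.931 and 1.55 FPKM in set A and 10.1 and 9.16 in set B (2.26 log2). Pparg, the master regulator of fat cell formation, had 1.14 and 1.23 against 4.54 and 4.27 (1.31), and Fabp4, a fatty acid carrier, had 11.499 and 9.49 against 25.3 and 26.5 (1.23). Lpl, lipoprotein lipase, was lower at 33.5 and 31.2 against 4.56 and 5.29 (-2.50). Of 20 genes on the list 12 passed the filter, and Adipoq, Plin1 and 6 others did not.

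Secreted antagonists and growth factor binders stood on both sides. The 20 genes of the TGF-beta and BMP list had a median of -0.20. The Wnt list had 2 of 20 genes called higher and 4 lower, the list of IGF binders and growth factors 3 and 2 of 18, and the imprinted genes 2 and 3 of 15, beside 1.99% and 3.30% of all genes. The BMP antagonist Grem1 was higher, at 6.97 and 8.16 against 21.1 and 21.2 FPKM (1.38 log2). Bmp2, a BMP ligand, was lower at 10.6 and 16.4 against 3.70 and 3.39 (-1.65), as was the BMP target Id1 at 238 and 234 against 128 and 104 (-1.02). Among Wnt genes on the list, Rspo2 and Dkk3 were higher (2.30 and 1.62) and Wnt9a, Dkk2, Wnt4 and Wnt5b lower (-1.51, -1.41, -1.28 and -1.01). The ligand Wnt16 and the receptor regulator Rnf43, chosen after their values were seen, are not on the list and were called higher. Wnt16 had 8.04 and 8.32 against 29.9 and 28.8 FPKM (1.73), and it rose in ctl by 1.45 (limma adjusted p = 8.2e-05). Rnf43 had a difference of 1.37. Frzb, a secreted Wnt antagonist that is also off the list, was called lower at -1.21. Dkk2 varied within set A, at 19.4 and 36.7 FPKM, against 10.6 and 8.45 in set B. Igfbp4, which binds insulin-like growth factors, had 379.97 and 321 against 99.3 and 111 (-1.72), and Igfbp6 had 48.7 and 48.7 against 14.8 and 11.6 (-1.82). Igfbp2 was higher at 24.8 and 27.9 against 80.0 and 62.9 (1.40), and so was Fgf7, a growth factor for epithelia, at 10.2 and 9.11 against 35.2 and 31.3 (1.69). Imprinted genes went both ways, with Dlk1 at -2.17, Cdkn1c at -1.72 and Peg3 at -1.44, and Dio3 at 1.82 and H19 at 1.35.

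Among transcription factors that carry positional identity most of the called genes were lower. Of 22 past the filter 1 was called higher and 5 lower, beside 1.99% and 3.30% of all genes, with a median of -0.03. Without overlap, 10 lay above set A and 9 below it, beside 40.0% and 33.4% of all genes. Gata6 and Gata4, factors of mesoderm and endoderm, had differences of -1.76 and -1.24. Gata6 had 43.2 and 37.1 FPKM in set A against 11.7 and 10.6, and 8.16 to 18.2 on days 0 to 12. Hoxb6 had 6.36 and 6.41 against 0.847 and 1.03 (-1.93), Meis2 had -1.43 and Tbx18 -1.02. Tbx15, a T-box factor, was the higher one at 32.4 and 29.2 against 83.6 and 86.6 (1.44).

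On the replication and mitosis lists no gene met the rule. None of 33 DNA replication genes and none of 32 mitosis genes was called, where 1.99% of all genes were called higher and 3.30% lower. Without overlap, 22 and 24 of them were below set A, as were 33.4% of all genes. Their medians were -0.14 and -0.16. Cdk1, the mitotic kinase, had 67.0 and 68.4 FPKM against 49.3 and 53.3 (-0.39), and Ccne1, a cyclin of S phase entry, had the largest difference of the replication list at 8.58 and 6.62 against 14.1 and 14.8 (0.86). Cdkn1a, the p53-driven inhibitor p21, was above set A at 12.9 and 13.6 against 27.6 and 25.7 (0.95) and missed the rule. The cyclins Ccnd1 and Ccnd2, which drive entry into the cycle, are on neither list and were chosen after their values were seen. Both were called higher, Ccnd1 at 24.3 and 18.9 against 93.7 and 100.6 FPKM (2.13) and Ccnd2 at 23.4 and 18.2 against 78.7 and 91.6 (1.99). Cdkn1c, the inhibitor p57, was called lower at 7.30 and 7.76 against 1.73 and 1.44 (-1.72). In ctl 16 members of the mitosis list rose and 2 fell by limma, with a median of 0.10, where 25.5% of all genes rose and 23.2% fell.

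The remaining cell state lists had few calls. Over all genes 1.99% were called higher and 3.30% lower. The 22 matrix proteases and inhibitors had a median of -0.02. Timp3, an inhibitor of metalloproteinases, and Htra1, a secreted protease, were lower at -1.02 and -1.01. Of 18 YAP and TEAD targets Fjx1 was higher (1.04) and Ankrd1 lower (-1.88), with a median of 0.03. Of 8 skeletal and cartilage genes past the filter, Col2a1, the cartilage collagen, was higher at 0.881 and 0.998 against 6.82 and 6.30 FPKM (1.96 log2), and Bmp2 was lower. None of 12 antigen presentation genes was called, with a median of -0.12.

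Metabolic genes were called lower at near the share of all genes, and called higher less often. Of 398 genes on the 20 metabolic lists past the filter, 3 were called higher (0.754%) and 12 lower (3.02%), against 1.99% and 3.30% of all genes. On the 21 cell state lists the counts were 33 higher (7.67%) and 53 lower (12.3%) of 430. The cell state lists hold the markers chosen with these differences known, so the 2 shares are a description. No gene was called among 29 of the citric acid cycle and anaplerosis, 37 of respiratory complex I, 35 of complexes III, IV and V, 10 of the pentose phosphate pathway, 20 of fatty acid oxidation, 24 of sterol synthesis and 17 of fatty acid synthesis. Differences on the citric acid cycle list ran from -0.29 to 0.37 and on the complex I list from -0.39 to 0.67. The other SDH subunits had differences of 0.11 for Sdha, 0.10 for Sdhb and -0.28 for Sdhd.

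Glycolysis and the hypoxia response held most of the metabolic calls. In normal cells, HIF factors raise glucose uptake, glycolysis and lactate export when oxygen is short. Slc16a3, the lactate exporter MCT4, had 24.2 and 23.6 FPKM in set A and 5.61 and 6.40 in set B (-1.83 log2), and 18.1 to 24.4 on days 0 to 12. Aldoc, an aldolase, had 4.24 and 5.68 against 0.665 and 0.883 (-1.74), and Slc2a3, the glucose transporter GLUT3, had 5.05 and 3.59 against 1.29 and 1.34 (-1.19). Car9, a carbonic anhydrase of the cell surface and a much used hypoxia marker, had 15.9 and 24.0 against 2.74 and 2.64 (-2.48). Plod2, a collagen lysyl hydroxylase, had 31.8 and 31.9 against 12.8 and 12.6 (-1.26). Other targets of the same pathway had the opposite sign or small differences. Adm and Stc2 (stanniocalcin 2) were higher, at 2.71 and 1.75, and so was Eno2, an enolase, at 5.67 and 7.49 against 19.5 and 20.1 (1.46). Ldha, Pgk1 and Slc2a1, which carry the main flow of glycolysis, had 0.17, 0.18 and 0.09. The medians of the glycolysis list and of the other HIF targets were -0.01 and -0.13.

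Amino acid and stress genes had small differences that mostly shared a sign. Of 26 ATF4 targets, genes that supply amino acids when they are scarce, 22 were above set A without overlap and 2 below, beside 40.0% and 33.4% of all genes, with a median of 0.31. None was called higher, and Fgf21, a stress hormone, was called lower at 4.49 and 3.82 against 0.968 and 0.808 FPKM (-1.45 log2). Psat1, of serine synthesis, had 121 and 99.5 against 182 and 209 (0.82), and 12 of 14 serine and one-carbon genes were above set A, with a median of 0.38. Ribosome biogenesis genes had 17 of 20 above and none below, again with a median of 0.38. ER chaperones were lower, with 14 of 18 below set A and a median of -0.31, led by Sdf2l1 at 54.8 and 44.2 against 27.1 and 23.9 (-0.93). In ctl 19 of 25 ATF4 targets rose and none fell by limma, with a median of 0.32, and 11 of 18 ER chaperones fell and 2 rose, with a median of -0.20. Over all ctl genes 25.5% rose and 23.2% fell. Among detoxifying enzymes, the glutathione transferases Gsta4, Gstm2 and Mgst1 were called lower in exp, at -1.62, -1.31 and -1.13, while the NRF2 list as a whole had a median of 0.04. Slc40a1, the iron exporter ferroportin, and Hspb1, a small heat shock protein, were lower at -1.41 and -1.10, and Abca9, a lipid transporter, at -1.63. No gene was called among 28 of lysosome and autophagy and 15 of the FOXO and starvation response, with medians of -0.12 and -0.17. Of all exp genes 1.99% were called higher and 3.30% lower.

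**Figure D3:**
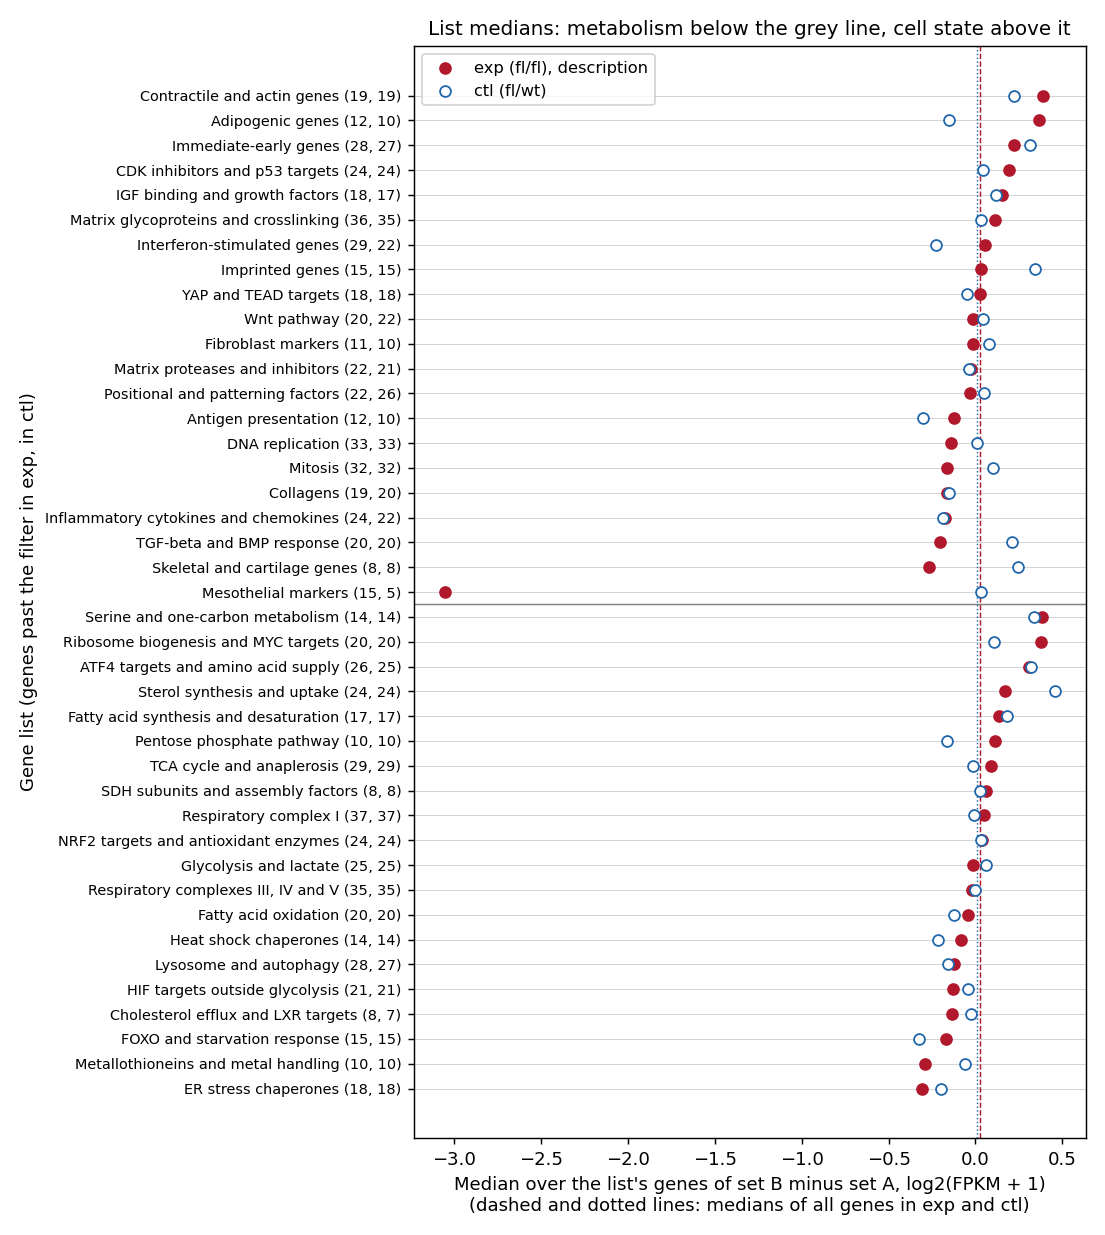
Median difference between the sets over the genes of each list with at least 5 genes past the filter, in exp (filled points) and ctl (open points), on the log2(FPKM + 1) scale, with the medians of all genes as vertical lines. Mesothelial markers stand at -3.06 in exp and all other lists lie within 0.5 of 0 in both lines.

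The same split was then measured in ctl. By limma 3147 of 12357 genes were higher in set B of ctl (25.5%) and 2871 lower (23.2%), with 6902 genes at an unadjusted p under 0.05. The two-sided test has 2 libraries a side, and 77 of these lower genes (0.623%) and 84 of the higher ones (0.680%) also differed by at least 1 log2. Of the 250 genes higher in exp, 237 were tested in ctl, and 143 of them (60.3%) were higher there too and 21 (8.86%) lower. Of the 414 lower in exp, 237 were tested, and 109 (46.0%) were lower and 56 (23.6%) higher in ctl. Beside the 25.5% and 23.2% of all genes, the same-way shares were larger, and the opposite-way share of the lower genes was near that of all genes. With a size of at least 1 log2 asked in ctl as well, 29 genes were higher in both lines and 18 lower in both. The remaining 177 lower genes, 11 mesothelial markers among them, were too low in ctl to be tested. The difference between the lines was not tested for any gene, because expression in exp chose the sets.

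Genes that went the same way in both lines included several of the largest in exp. Lrrc32 rose in ctl from 25.4 and 24.997 to 63.1 and 65.2 FPKM (1.31 ± 0.04 log2, SE; limma adjusted p = 3.38e-07). Cxcl5 rose from 0.952 and 0.689 to 6.21 and 6.46 (2.01 ± 0.09, limma adjusted p = 1.65e-06), and Alkal1 by 1.75 ± 0.06 (limma adjusted p = 6.07e-07). Adm, Tnfrsf11b, Cxcl1 and Ccn5 rose by less, at 0.68, 0.83, 0.87 and 0.67 (limma adjusted p at most 0.00211). Thbs1, a matrix thrombospondin, had 1.03 and 1.41. Of the lower genes, Ankrd1, a target of YAP, had -1.88 in exp, and in ctl it fell from 11.9 and 14.9 to 1.89 and 1.48 FPKM (by 2.42 log2; limma adjusted p = 8.45e-05). Igfbp4, Loxl2, Col8a2, Hspb1 and Vcam1 fell in ctl by 1.38, 1.40, 1.16, 1.06 and 1.07. Fos had a ctl difference of 1.43 ± 0.60 that did not pass (limma adjusted p = 0.192), since its set B values there were 31.2 and 12.7 FPKM.

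**Figure D4:**
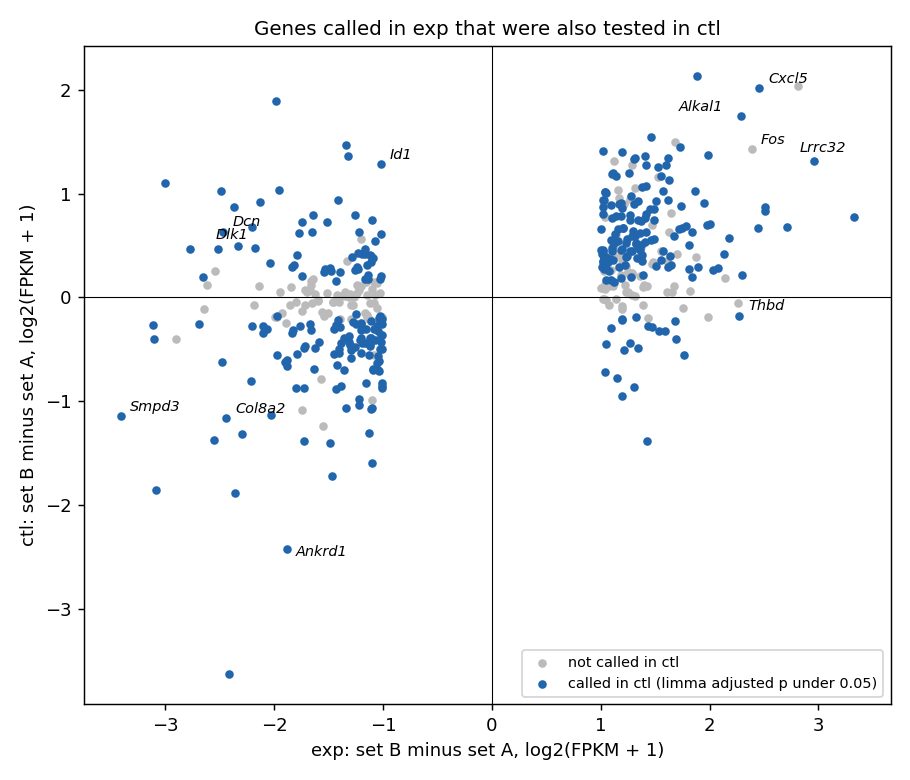
Difference between the sets in exp (horizontal axis) and in ctl (vertical axis), log2(FPKM + 1), for the genes called in exp that were also tested in ctl; blue points passed limma in ctl. Most genes higher in exp lie above 0 in ctl, and the genes lower in exp are spread on both sides, with Id1 and Dcn above 0 and Ankrd1 and Smpd3 below it.

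To place the other libraries on the same axis, each gene called in exp was scaled so that the set A mean is 0 and the set B mean is 1. The median over genes was then taken for each library. For the 250 higher genes, exp days 0, 5, 9 and 12 lay at 0.22, 0.09, 0.08 and 0.04, near set A. Day 0 was the most spread, with 69 of the 250 genes at or beyond the set B mean, while days 5, 9 and 12 had 8, 3 and 3. For the 414 lower genes the same days lay between the sets, at 0.56, 0.56, 0.78 and 0.46. By these medians the higher genes had their early level in set A, whereas for the lower genes set A lay above the early level and set B below it. In ctl the lower genes stood at 1.09 to 1.17 in all 8 libraries, at or past the level of exp set B. The higher genes stood at 0.28 and 0.30 in set A of ctl, at 0.74 and 0.68 in set B, and at 0.27 to 0.58 on the early days.

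**Figure D5:**
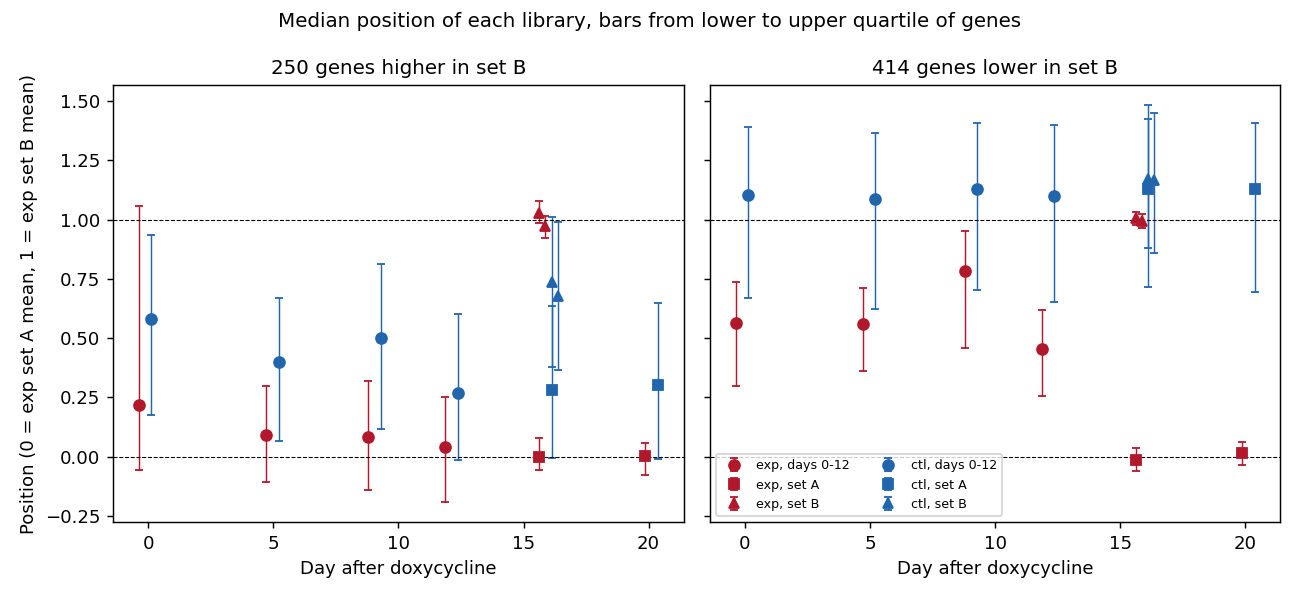
Median position of each library between the exp set A mean (0) and the exp set B mean (1), for the genes higher (left) and lower (right) in set B, against day; bars run from the lower to the upper quartile over genes. Early exp libraries (red circles) sit near 0 on the left and between 0 and 1 on the right, and the ctl libraries (blue) sit above 1 on the right.

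Whole-library correlations were computed beside these positions. Pearson's r of log2(FPKM + 1) across genes, which are not independent replicates and share depth and gene length, was 0.993 between the set A libraries and 0.995 between those of set B. Across the sets it was 0.952 to 0.954. Set A had 0.948 to 0.981 with the early exp libraries and 0.918 to 0.925 with the 8 ctl libraries. Set B had 0.947 to 0.964 with the early exp libraries and 0.941 to 0.964 with ctl.

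Promoter letters were counted in the genes called in exp, for 12 short motifs on both strands in the 250 bases before the start. The table of promoters held 122 of the 250 higher genes, 280 of the 414 lower genes and 9569 of all 12539. GGAATG was in 15.6% of higher, 15.7% of lower and 10.3% of all promoters. TGAGTCA, the AP-1 site, was in 5.74%, 6.79% and 2.79%. ACGTG was in 20.5%, 14.6% and 22.4%, and CCAAT, a common promoter box, in 33.6%, 32.5% and 37.4%. TTTGAA, of cell cycle promoters, was in 13.1%, 8.21% and 10.6%, and TGACNNNGC, of antioxidant genes, in 10.7%, 12.9% and 11.9%. ATTGGTC had 3.28%, 2.50% and 5.55%, and TGATGNAA, of ATF4 targets, had 4.10%, 1.43% and 1.85%. TCACNCCAC, TTTCGCGC, TTTGGCGC and the ISRE were each in at most 3.93% of any of the 3 groups. CCAAT overlaps ATTGGTC by its reverse letters. Gene length, on which FPKM depends, was also compared. The shortest 2508 genes (30 to 1458 bases) had a median difference of 0.02 in exp with 105 called higher and 72 lower, and the longest 2507 had 0.07 with 42 and 81. The part of length in the calls was not tested. The motif shares describe letters in 1 annotated window per gene and were not tested.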

How the data were processed

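The deposited files hold FPKM per gene and library, values the authors normalized to transcript length and to the number of mapped reads. Per the submitters' processing notes the build was mm9 and the aligner Bowtie2 2.2.3; the sources used here name no other step. Values were taken as log2(FPKM + 1) for genes with a mean of at least 1 FPKM in the 4 libraries compared. Symbols matched 24416 of 24485 gene IDs.

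In exp a gene was called at a difference of at least 1 with no overlap between sets, without a test. In ctl the same split was fitted with limma 3.58.1 (trend, robust; statmod 1.5.0; R 4.3.3), two-sided, with Benjamini-Hochberg adjustment over all genes tested and a threshold of 0.05. The labels do not say that replicates came from separate cultures, so p-values measure only the spread between these libraries. Depth came from whole reads recovered from the steps of the FPKM values for 18966 genes, within 0.02 reads; the recovery was tested on simulated data.

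The members and gene lists were chosen with earlier results of these data known. Genes were named as the SDH subunits, the 12 largest differences per direction with at least 5 FPKM in the higher set, and up to 4 members per list with the largest difference. Others, such as Vim, Col1a1, Cdk1 and Ldha, were chosen after their values were seen. Predicted genes, RIKEN clones, small RNAs and histone paralogs were not named, and the values of some list members are not reported here. Promoter sequences are RefSeq's (GRCm38.p6), located in mm9 by exact match.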

Additional observations from a re-analysis of the deposited data

Results flagged for a closer look

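For 23 named genes that were called in exp and passed limma in ctl (adjusted p under 0.05), both set B libraries of exp lay on 1 side of set A and both set B libraries of ctl on the other. The difference between the lines was not tested for any of them, and the exp values come from the libraries that chose the sets. Higher in set B of exp and lower in that of ctl were Thbd (2.27 log2 in exp), Il1rl1 (1.47), Fgf7 (1.69), Tbx15 (1.44), Pparg (1.31), Loxl4 (1.27) and Fjx1 (1.04). Their ctl differences ran from -0.87 for Pparg to -0.17 for Thbd. Lower in exp and higher in ctl were the mesothelial markers Bnc1 (-3.00) and Msln (-2.65), the matrix genes Dcn (-2.46), Eln (-1.65) and Col3a1 (-1.12) and the inhibitor Timp3 (-1.02). The signalling genes Igfbp6 (-1.82), Bmp2 (-1.65), Dusp6 (-1.26) and Id1 (-1.02), the imprinted gene Dlk1 (-2.17) and the patterning factors Meis2 (-1.43) and Tbx18 (-1.02) were in the same group. So were the metabolic genes Slc16a3 (-1.83), Aldoc (-1.74) and Mgst1 (-1.13). Their ctl differences ran from 0.16 for Meis2 to 1.28 for Id1.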

How the results depend on the processing

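The counts of called genes depended on the pseudocount and the size asked. Higher genes in exp numbered 387 with a pseudocount of 0.1, 101 with 5, 380 on log2 CPM of recovered reads, 743 at 1.5-fold or more and 20 at 2 log2 or more. Lower genes numbered 174 with a pseudocount of 5, 232 at a mean of at least 5 FPKM, 788 at 1.5-fold or more and 99 at 2 log2 or more. Leaving out each replicate in turn gave 236 to 285 higher and 390 to 446 lower genes in exp, 2105 to 2932 higher and 1943 to 2402 lower in ctl, and 15 mesothelial markers each time. In ctl such a fit leaves 1 side with a lone library, which is assumed to vary like the other side. Of the exp genes at 2 log2 or more that were tested in ctl, 73.7% of the higher ones were higher and 5.26% lower, and 34.3% of the lower ones were higher. At that size the mean position of exp days 0 to 12 for higher genes was -0.093, against 0.109 at 1 log2, that of ctl set A 0.219 and that of ctl set B 0.522. For lower genes the positions were 1.33 for ctl days 0 to 12, 1.34 for ctl set A and 1.33 for ctl set B. With a pseudocount of 5 ctl set A stood at 0.267 for higher genes, and for lower genes ctl days 0 to 12, set A and set B stood at 1.07, 1.08 and 1.12. Median-of-ratios rescaling gave 1.13 and 1.17 for ctl sets A and B. The cause was not tested. With each list counted once per setting, 447 medians moved by less than the spread between replicates and 26 by more. With each named gene counted once per setting, the numbers were 1743 and 274. The ctl counts changed order under median-of-ratios rescaling (3027 higher, 3077 lower) and quantile normalization (2926 and 3137). No paired analysis was possible because the sets within a line share fewer than 2 replicate numbers. The count test with edgeR was not run, since the deposited unit is FPKM. With 2 libraries a side an exact permutation test could not go below p = 0.333.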
